A study of Rattus norvegicus with 9 samples.

Results

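Nos3, Edn1, Ptgs1 and Ptgs2, 4 genes through which endothelial cells set the tone of the vessel wall, were followed in cultured rat renal artery endothelial cells. They were taken by their Ensembl identifiers (ENSRNOG00000009348, ENSRNOG00000014361, ENSRNOG00000007415 and ENSRNOG00000002525, in the same order) from the 32883 genes of the deposited table, and all 4 were present. Cells of all groups were grown in medium with fetal bovine serum, and their total RNA was made into strand-specific libraries. The treated group received the isoflavone calycosin together with tanshinone IIA, a quinone from danshen (3 libraries). The Model group (3 libraries) is tied by the study's title to angiotensin II, a peptide that raises blood pressure, and the Normal group (3 libraries) is the control to it. No dose or time is given in the labels, which also do not say whether treated cells received the Model condition or whether replicate libraries stem from different cultures. The p-values below therefore measure spread among these libraries only, which may be technical.

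Endothelial nitric oxide synthase, the product of Nos3, makes nitric oxide from arginine, which relaxes the underlying smooth muscle. Edn1 encodes the precursor of endothelin-1, a peptide that constricts it. The cyclooxygenases Ptgs1 (COX-1) and Ptgs2 (COX-2) turn arachidonic acid into prostaglandin H2, from which endothelial cells make prostacyclin, a vasodilator, and other prostanoids. Ptgs1 is usually described as constitutive and Ptgs2 as inducible by cytokines, growth factors and shear stress.

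Ptgs2 was the member called in a test and Ptgs1, its paralogue, was not, so the promoter windows of both are shown. Each covers 250 bases before to 50 after the annotated transcription start and comes from RefSeq on build GRCr8, whereas the deposited tables rest on mRatBN7.2. The Ptgs2 window is chr13:64713813-64714112 on the plus strand and the Ptgs1 window is chr3:39981169-39981468 on the plus strand. Capitals mark the E-box CACGTG and the GC box GGGCGG.
Ptgs2: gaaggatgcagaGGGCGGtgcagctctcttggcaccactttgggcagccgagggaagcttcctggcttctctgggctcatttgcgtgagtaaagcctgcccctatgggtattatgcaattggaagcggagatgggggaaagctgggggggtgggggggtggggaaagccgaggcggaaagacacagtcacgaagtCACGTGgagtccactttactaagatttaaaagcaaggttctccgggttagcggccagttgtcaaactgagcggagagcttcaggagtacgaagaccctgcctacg
Ptgs1: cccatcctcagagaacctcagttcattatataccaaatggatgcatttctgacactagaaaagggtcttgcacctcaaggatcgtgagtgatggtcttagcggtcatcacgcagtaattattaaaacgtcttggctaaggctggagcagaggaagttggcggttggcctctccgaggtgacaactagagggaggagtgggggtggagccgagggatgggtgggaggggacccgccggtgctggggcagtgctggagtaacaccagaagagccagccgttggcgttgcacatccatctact
Both strands of each window were searched for 6 motifs: the TATA box TATAAA, the E-box CACGTG, the cyclic AMP response element TGACGTCA, the AP-1 element TGANTCA, the GC box GGGCGG and the GATA element AGATAA. No matches overlapped within these windows. The Ptgs2 window held the E-box at positions -55 to -50 from the start and a GC box at -238 to -233. The Ptgs1 window held none of the 6. The E-box was present in 6.42% and the GC box in 33.1% of 33469 rat promoter windows of the same length, so the E-box is the less common of the Ptgs2 matches. The Edn1 window, on chromosome 17, held a TATA box at -110 to -105 and a GATA element on the minus strand at -214 to -209, which 14.2% and 11.6% of windows hold. The Nos3 window, on chromosome 4, held a GC box at -106 to -101. These are letter matches and were not tested as binding sites.

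Depth differed between libraries. In units of 1e6, total gene counts ranged from 7.98 to 18.3 for treated, from 13.2 to 17.2 for Model and from 12.3 to 13.6 for Normal libraries. Levels in CPM are counts per 1e6 counted reads. Group means in CPM and the CPM values of the genes with the most similar patterns use totals scaled by TMM factors, while sums over libraries, Poisson intervals and the floor use unscaled totals. A floor of 3 counts is 0.164 to 0.376 CPM, depending on the library, and this floor and the Poisson intervals below cover counting error only. Levels are given in the FPKM (fragments per kilobase of transcript and per 1e6 fragments) that the authors deposited, which allow comparison between genes, and fold changes come from the counts, scaled by TMM factors. The gene lengths implied by the deposited count and FPKM were 5.38 kb for Nos3, 1.39 kb for Edn1, 2.80 kb for Ptgs1 and 4.37 kb for Ptgs2. Reads of genes that overlap these or run antisense to them cannot be told apart, since the strand setting of the counting is not given.

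The levels of the 4 genes fell into 3 tiers. Over the 9 libraries, the FPKM level of Edn1 averaged 19.98 ± 1.48, that of Ptgs2 2.33 ± 1.18, that of Ptgs1 1.64 ± 0.203 and that of Nos3 0.0666 ± 0.0292 (SD, n = 9, over all groups). Edn1 ranked above 70.1% to 76.7% of the genes with an FPKM above 0 in the same library, Ptgs2 above 25.9% to 38.4%, Ptgs1 above 25.3% to 31.3% and, in the 8 libraries where it was detected, Nos3 above 3.53% to 7.27%. Edn1 and Nos3 were separated from each other and from the cyclooxygenases in every library, whereas Ptgs1 and Ptgs2 overlapped in Model and Normal cells.

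**Figure D1:**
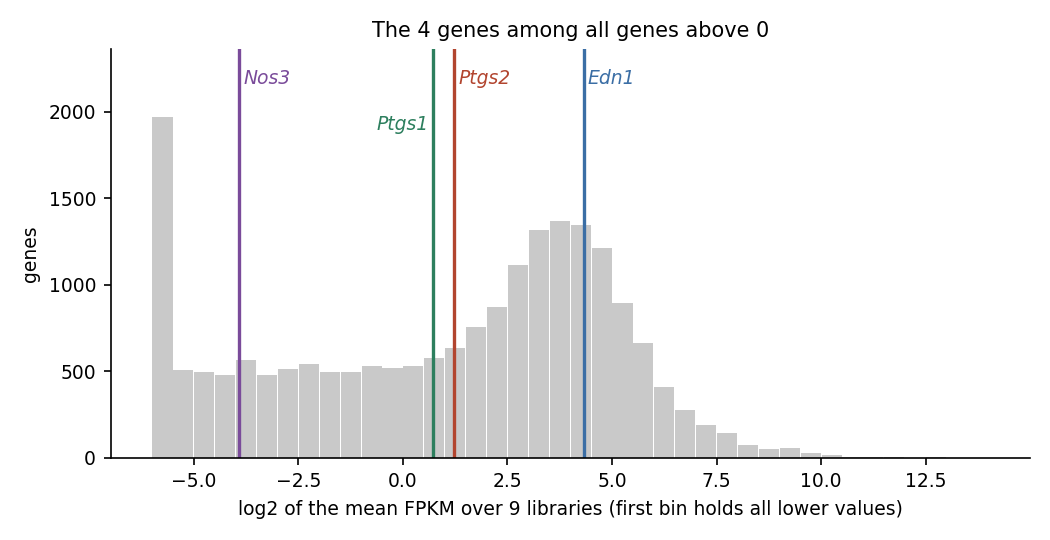
Histogram of all genes above 0 by the log2 of their mean FPKM over 9 libraries (x axis), with the number of genes on the y axis and a vertical line at each of the 4 genes. Nos3 (mean FPKM 0.0666) lies in the low tail, Ptgs1 (1.64) and Ptgs2 (2.33) lie below the main peak of expressed genes and Edn1 (19.98) lies within that peak.

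Nos3 was near 0 in every group. It was counted 6, 0 and 4 times in the treated libraries, 6, 4 and 7 times in the Model libraries and 7, 5 and 5 times in the Normal libraries. The highest FPKM of any library was 0.0962, in Normal library 1, below the limit of 0.1 in every library that was set for calling a gene near 0. Summed over libraries, Nos3 reached 0.291 CPM in treated cells (95% exact Poisson interval 0.140 to 0.535), 0.367 CPM in Model cells (0.214 to 0.587) and 0.432 CPM in Normal cells (0.252 to 0.692). The 3 intervals overlapped, and no difference in Nos3 was detectable at this depth. In RNA of whole cultures, fewer cells that express a gene and less of its RNA per cell cannot be told apart. The count of 0 in treated library 2 allows a level of up to 0.376 CPM in that library by the floor of 3 counts, and its 95% exact Poisson interval reaches 0.462 CPM. Nos3 did not pass the filter on low counts, so it has no place in the tests below. In a fit without that filter its log2 fold change was -0.38 ± 0.65 (SE) for treated against Model, -0.21 ± 0.58 for Model against Normal and -0.59 ± 0.65 for treated against Normal (edgeR quasi-likelihood test, adjusted p = 0.883, 1 and 0.706 in that order). Nos3 is itself a marker by which endothelial cells are recognised. It was not among the cell type markers chosen (endothelial, smooth muscle, fibroblast, epithelial and leukocyte). Those could not be matched to the identifiers of the table, so the labelled cell type was not checked with them.

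Edn1 was the most abundant of the 4 and its groups overlapped. Its FPKM was 20.5, 18.8 and 21.8 in treated libraries, 19.1, 18.5 and 19.8 in Model libraries and 22.7, 20.0 and 18.5 in Normal libraries. The 3 groups overlapped, and the highest and lowest values were both in Normal cells. The counts behind them were 209 to 519 per library. The log2 fold change was 0.08 ± 0.10 (SE) for treated against Model, with a 95% interval of -0.13 to 0.28. It was -0.09 ± 0.09 for Model against Normal (-0.29 to 0.11) and -0.02 ± 0.10 for treated against Normal (-0.22 to 0.19). None passed the test (edgeR adjusted p = 0.778, 0.999 and 0.956 in that order). In linear terms the intervals reach from 0.816-fold at the lowest to 1.22-fold at the highest, so changes of Edn1 outside these bounds were not seen in any of the 3 comparisons.

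Ptgs1, the COX-1 gene, was at 1.66, 1.97 and 1.53 FPKM in treated libraries, 1.75, 1.55 and 1.83 FPKM in Model libraries and 1.40, 1.71 and 1.34 FPKM in Normal libraries. The groups overlapped in all 3 comparisons. Its counts were 35 to 88 per library, fewer than for Edn1, and the intervals were wider. The log2 fold change was -0.01 ± 0.17 for treated against Model (95% interval -0.37 to 0.34), 0.20 ± 0.16 for Model against Normal (-0.15 to 0.56) and 0.19 ± 0.17 for treated against Normal (-0.17 to 0.56). None passed the test (edgeR adjusted p = 0.987, 0.999 and 0.581 in that order). The sign of the first of these was positive in 7 of 16 other settings.

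Ptgs2, the COX-2 gene, was the member called in a test. Its FPKM was 3.21, 3.92 and 4.29 in treated libraries, 1.00, 2.13 and 1.46 in Model libraries and 1.78, 1.52 and 1.68 in Normal libraries. Every treated library was above every Model and Normal library, while the Model values spread to both sides of the Normal ones. The deposited counts were 256, 137 and 153 in treated libraries, 58, 148 and 110 in Model libraries and 105, 90 and 90 in Normal libraries. Treated library 1 was the most deeply sequenced of the 9 and treated libraries 2 and 3 the least. Library 1 had the lowest Ptgs2 level of the treated group, at 3.21 FPKM, and libraries 2 and 3 had 3.92 and 4.29 FPKM. The part of depth in these levels was not tested.

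**Figure D2:**
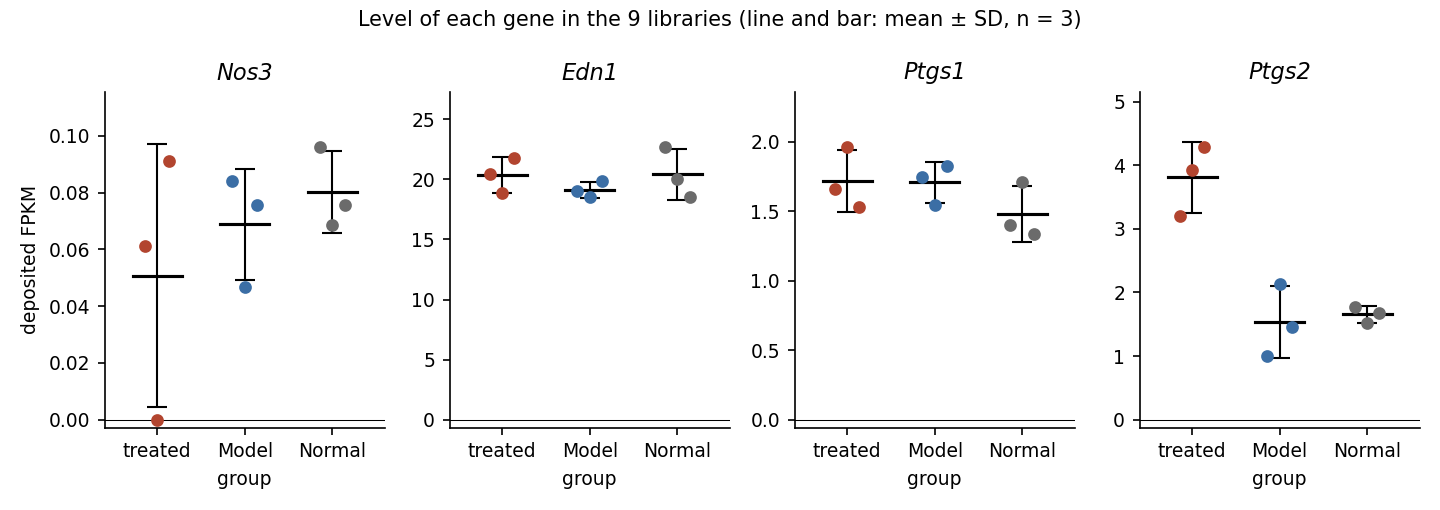
Deposited FPKM (y axis, a scale of its own for each gene) of Nos3, Edn1, Ptgs1 and Ptgs2 in treated, Model and Normal cells; points are libraries, and the line and bar give the mean and SD (n = 3). The treated libraries stand apart for Ptgs2, at 3.21 to 4.29 FPKM against 1.00 to 2.13 FPKM in Model cells and 1.52 to 1.78 FPKM in Normal cells, and the groups overlap for the other 3 genes.

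The comparison of treated with Model cells asks what both compounds together changed, on the assumption, taken from the title, that treated cells also received the Model condition. Ptgs2 rose 2.40-fold in treated cells, with a 95% interval of 1.76 to 3.28. Its level averaged 16.6 ± 2.35 CPM in treated cells and 6.73 ± 2.49 CPM in Model cells (SD, n = 3 each), and the log2 fold change was 1.27 ± 0.21 (SE; adjusted p = 0.0142 by edgeR over 12943 genes). It was 1 of 3 tested members to be called, where 0.919% of all genes tested were called in either direction and 0.572% were called higher in treated cells. The members were chosen with earlier results of these data known, so these shares are descriptions. By p Ptgs2 ranked 38th and by size of the rise 24th among 12943 genes, whose median log2 fold change was -0.0010. Groups that do not overlap were found in 18.8% of all tested genes, 7.9% with treated cells higher. The call was lost without Model library 3 (adjusted p = 0.0887), without treated library 2 (0.0924) or without treated library 3 (0.0660), and when Normal libraries were kept out of the fit (0.0510). The log2 fold change stayed between 1.05 and 1.57 whichever single library was left out.

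Treated against Normal cells gave a rise of Ptgs2 too. The mean level was 16.6 ± 2.35 CPM in treated cells and 7.27 ± 0.581 CPM in Normal cells (SD, n = 3 each), a 2.25-fold rise (95% interval 1.64 to 3.08; log2 fold change 1.17 ± 0.21; edgeR adjusted p = 0.0104). Of the 3 tested members it was again the 1 called, where 2.67% of 12943 genes were called, 1.39% with treated cells higher. The limit from the choice of members holds here too. Ptgs2 ranked 123rd by p and 31st by size of the rise. Of all tested genes, 24.4% had treated and Normal libraries that did not overlap, 11.9% with treated cells higher. This comparison shares its treated libraries with the one against Model, so both rest on the same 3 high values. The call was lost without Normal library 1 (adjusted p = 0.0613), Normal library 2 (0.0788), treated library 2 (0.0644) or treated library 3 (0.0578). With a surrogate variable in the fit, an alternative chosen after seeing the data, the log2 fold change was 0.32 ± 0.31 (adjusted p = 0.979), and 70.9% of the variance of that variable lay between the groups.

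**Figure D3:**
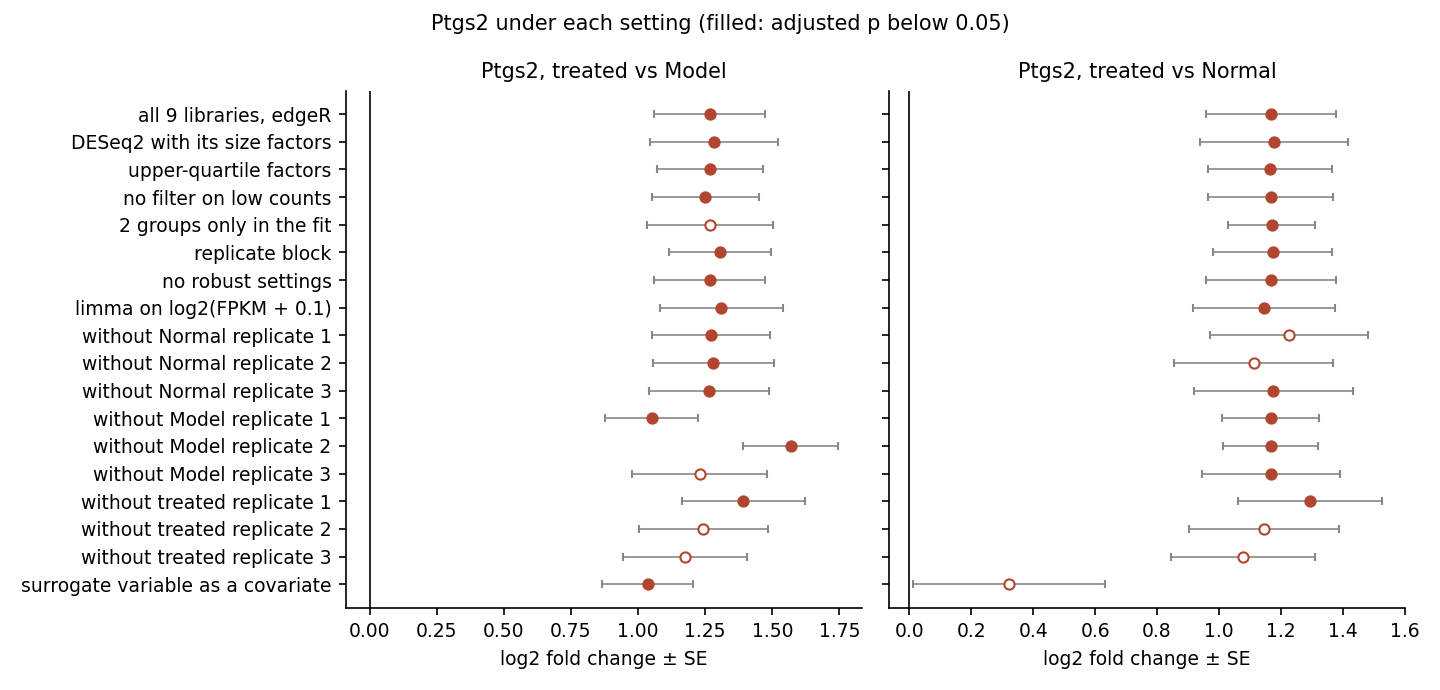
Log2 fold change of Ptgs2 with its SE (x axis) for treated against Model cells (left) and treated against Normal cells (right) under each setting named on the y axis; filled points have an adjusted p below 0.05. On the left all values lie between 1.04 and 1.57, and on the right they lie between 1.08 and 1.29 except for 0.32 with a surrogate variable.

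Model against Normal cells asks what the Model condition changed, and none of the 3 tested members was called, as was none of the 12943 genes (0%; edgeR, 550 genes at an unadjusted p below 0.05; DESeq2 also called 0, with 409). Both unadjusted numbers are below a share of 0.05 of the genes tested, the share reached where no gene differs. Ptgs2 averaged 6.73 ± 2.49 CPM in Model cells and 7.27 ± 0.581 CPM in Normal cells (SD, n = 3 each). The log2 fold change was -0.10 ± 0.22, with a 95% interval of -0.57 to 0.38 (edgeR adjusted p = 0.999), which leaves room for a fold from 0.672 to 1.30. Without Model library 1 the sign turned, to 0.12. With the surrogate variable the value was -0.71 ± 0.25 (edgeR adjusted p = 0.597).

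**Figure D4:**
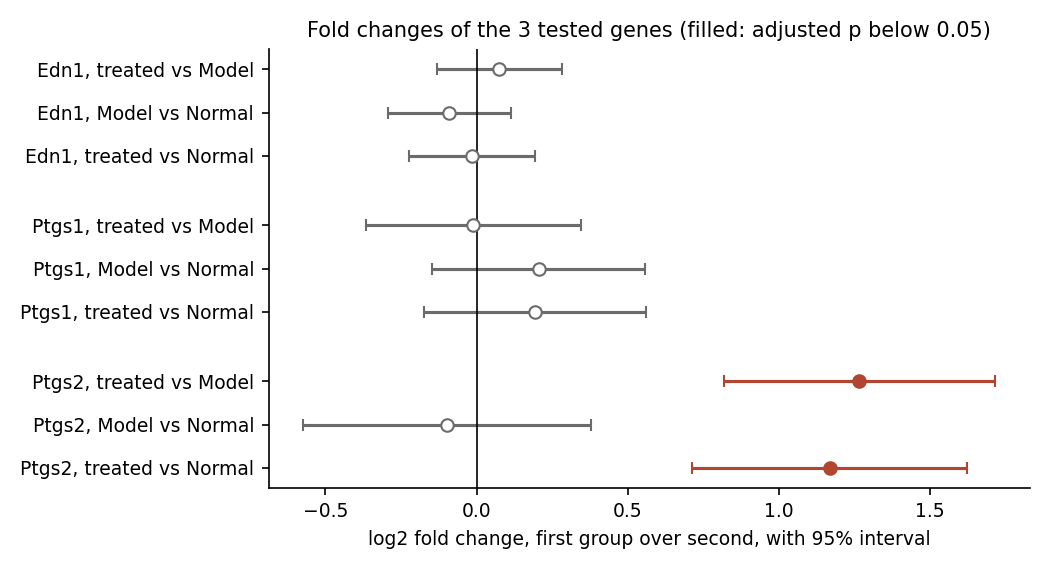
Log2 fold change (x axis) with its 95% interval for Edn1, Ptgs1 and Ptgs2 in each of the 3 comparisons, the first-named group over the second; filled points have an adjusted p below 0.05. The 2 filled points are Ptgs2 in treated against Model cells (1.27) and in treated against Normal cells (1.17), and the other 7 intervals include 0.

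Of the 3 groups, Ptgs2 varied most among the Model libraries. The coefficient of variation of its FPKM was 14.5% in treated cells, 37.0% in Model cells and 7.84% in Normal cells, where counting alone gives 7.41%, 9.74% and 10.3% in that order. Replicates exceeded counting error over all genes in every pair. In the edgeR fit the trended spread beyond counting at the level of Ptgs2 was 10.5%. The 37.0% in Model cells includes counting error, so the 2 values are not like measures. The spread of Ptgs2 exceeded counting error in Model cells and did not in Normal cells. Model library 1 had 58 counts, or 4.38 CPM (95% exact Poisson interval 3.32 to 5.66). Model library 2 had 148 counts, or 9.30 CPM (7.86 to 10.9), and these intervals do not overlap. Model libraries 1 and 2 were also the replicate pair least alike over all genes, with a chi-square of 15.1 per degree of freedom, against 4.77 to 11.8 for the other 8 pairs of replicates. The part of that difference in the Ptgs2 values was not tested. For Edn1 the coefficient of variation was 7.33% in treated cells, 3.44% in Model cells and 10.4% in Normal cells, so Model cells were not the most variable group for that gene.

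The balance of the cyclooxygenase genes was compared within each library. The ratio of Ptgs2 to Ptgs1 FPKM was 1.93, 2.00 and 2.80 in treated libraries, 0.572, 1.38 and 0.801 in Model libraries and 1.27, 0.888 and 1.25 in Normal libraries. Ptgs2 thus exceeded Ptgs1 in all 3 treated libraries, in 1 of 3 Model libraries and in 2 of 3 Normal libraries. The mean log2 ratio was 1.14 ± 0.30 in treated cells, -0.22 ± 0.64 in Model cells and 0.17 ± 0.29 in Normal cells (SD, n = 3 each). Treated cells differed from Model cells by 1.37 and from Normal cells by 0.98 on the log2 scale, with no overlap between the groups (exact permutation test, two-sided, p = 0.1 for each, the smallest that 3 against 3 can give; adjusted over 3 comparisons p = 0.15). Model cells differed from Normal cells by -0.39, with overlap (exact permutation p = 0.4). These tests cannot pass a threshold of 0.05 at this size, and Ptgs2 enters them with the values described above. The ratio of Edn1 to Ptgs2 FPKM was 5.42 ± 0.842 in treated cells, 13.8 ± 5.17 in Model cells and 12.3 ± 1.13 in Normal cells. The ratio of Edn1 to Nos3 was not computed, since treated library 2 had 0 counts of Nos3.

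**Figure D5:**
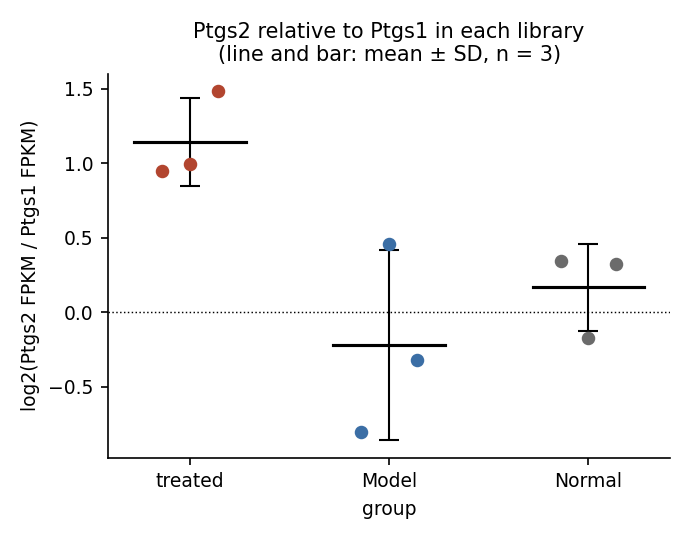
Log2 ratio of Ptgs2 to Ptgs1 FPKM (y axis) in each library of the treated, Model and Normal groups; points are libraries, the line and bar give the mean and SD (n = 3), and the dotted line marks equal levels. The treated libraries lie between 0.95 and 1.49, above all Model and Normal libraries, which lie between -0.81 and 0.46.

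The genes whose pattern over the 9 libraries was most like that of each tested member were found by Pearson's r of log2 CPM among 12942 other genes. For Ptgs2 it was ENSRNOG00000023628 (r = 0.980), at 18.4, 21.1 and 20.6 CPM in treated libraries, 12.9, 16.3 and 14.4 CPM in Model libraries and 14.9, 14.3 and 13.9 CPM in Normal libraries. Like Ptgs2, it was above all others in the treated libraries and highest of the Model libraries in library 2. For Edn1 it was ENSRNOG00000029070 (r = 0.928), a gene of 2.12 to 3.29 CPM, and for Ptgs1 ENSRNOG00000001134 (r = 0.922), a gene of 33.2 to 41 CPM. The highest of 12942 correlations over 9 points is large by selection, and the libraries share their groups, so these values are descriptions. The deposited table gives no symbol for these identifiers.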

How the data were processed

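Whole-number read counts per gene and FPKM values for 9 libraries were deposited by the authors, per the file headers. FPKM is there scaled to gene length and library depth. Per the submitters' processing notes, CASAVA 1.8 and the build mRatBN7.2 were used. Per the labels' protocols the kit was strand-specific. What aligned and counted the reads, with which strand setting and annotation, is not given in the sources used here. The deposited lncRNA table was not used here.

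Counts were tested with edgeR 4.0.16 under R 4.3.3 (TMM scaling, a filterByExpr minimum of 10 counts, robust quasi-likelihood fit, group as the only term, all 9 libraries). Of 32883 genes, 12943 passed the filter, and Edn1, Ptgs1 and Ptgs2 were among them. Adjusted p-values (Benjamini-Hochberg) run over all tested genes, with a threshold of 0.05. The SE is the log2 fold change divided by the square root of F. No replicate pair agreed within counting noise (chi-square of 4.77 to 15.1 per degree of freedom), so none was merged as a library deposited again. This does not show separate cultures. The fit was tested on simulated data. Alternatives used DESeq2 1.42.0, limma 3.58.1 on log2(FPKM + 0.1), upper-quartile factors, no filter, 2 groups only, a replicate block, no robust settings and each library left out. A surrogate variable from sva 3.50.0 was chosen after seeing the data.

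The 4 members and the lists were chosen with earlier results of these data known. The genes named are the 4 members and, for each tested member, the gene with the highest correlation. The reference gene table (GRCr8) matched 0 of the 32883 identifiers, so 8 gene lists with 91 symbols could not be scored, and the members' names come from the list that defines them. Promoter windows were matched by symbol, 4 of 4.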

Additional observations from a re-analysis of the deposited data

How the results depend on the processing

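Ptgs2 kept its direction in all 17 alternatives for treated against Model cells and its call in 13, with adjusted p from 2.61e-05 to 0.0924. For treated against Normal cells it kept its direction in 17 and its call in 12, with adjusted p from 0.000122 to 0.979. The members called between treated and Model cells numbered 1, but 0 in a fit on 2 groups only and 0 to 1 when a library was left out. Between treated and Normal cells the number was 1, but 0 with a surrogate variable and 0 to 1 when a library was left out. Some uncalled values changed sign. Ptgs1 for treated against Model was 0.0054 in limma, 0.0099 with the surrogate variable and -0.097 to 0.052 when a library was left out. In DESeq2 that value had no adjusted p. Edn1 for treated against Normal was 0.097 with the surrogate variable and -0.080 to 0.072 when a library was left out. Ptgs2 for Model against Normal, -0.10 with all libraries, was -0.40 to 0.12 when a library was left out and -0.71 with the surrogate variable. The cause was not tested. With TMM scaling the 12 group mean levels moved by less than 1 SD. The mean FPKM of Nos3 in treated cells, 0.0508, ranged from 0.0305 (treated library 3 left out) to 0.0761 (treated library 2 left out). Nos3 was tested only without the filter on low counts.

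Over all genes, 119 were called between treated and Model cells, against 233 in DESeq2, 47 with the replicate block, 57 in limma, 48 with the surrogate variable and 8 to 215 when a library was left out. Between treated and Normal cells 346 were called, against 549 in DESeq2, 0 with the surrogate variable (798 at an unadjusted p below 0.05) and 94 to 671 when a library was left out. Between Model and Normal cells 0 were called, against 1 with the replicate block and 0 to 16 when a library was left out. Deviations from the group means correlated above 0.1 in 2 of 9 same-numbered pairs, both of Model with Normal libraries (0.294 and 0.167). A library correlated best with its own number in 10 of 18 checks, each a choice among 3 libraries. These values do not settle whether same-numbered libraries belong together. With the replicate block the log2 fold change of Ptgs2 was 1.30 (adjusted p = 0.0225) for treated against Model and 1.17 (0.00811) for treated against Normal. Depth limits Nos3 most, with at most 7 counts in a library.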
